A study of Homo sapiens with 24 samples.

Results

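The mitochondrial ribosomal protein genes were the 77 protein-coding genes of the deposited count table whose symbol starts with MRPL or MRPS followed by digits, of 65180 gene IDs in all. By symbol, 48 belong to the large subunit (MRPL) and 29 to the small subunit (MRPS), and they lie on 21 chromosomes. The measurements are bulk poly(A) RNA-seq of 24 cultures of HK-2, an established human kidney proximal tubule line immortalised with papillomavirus genes, and all cultures come from this 1 line. All cells were deprived of serum overnight and then kept for 24 h under their treatment. The 6 groups were BAY 60-2770 in hypoxia at 0.3% oxygen (3 libraries), solvent in hypoxia (3), BAY 60-2770 in normoxia (3), TGF-β1 at 2 ng/mL together with BAY 60-2770 in normoxia (5), TGF-β1 alone in normoxia (5) and solvent in normoxia (5). BAY 60-2770 is an activator of soluble guanylate cyclase, which produces cyclic GMP, and the labels give its dose as 1 mM, which could not be checked here. Solvent controls received the carriers, namely DMSO, hydrochloric acid and bovine serum albumin.

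Mitochondrial ribosomes translate the few proteins encoded by mitochondrial DNA, all of them membrane subunits of the respiratory chain and ATP synthase. Their RNA is made inside the organelle, whereas every one of their proteins is encoded in the nucleus, made by cytosolic ribosomes and imported. The large subunit holds the peptidyl transferase centre and the exit tunnel, and the small subunit reads the mRNA. A few symbols do not match the structure. MRPS18A and MRPS30 are large-subunit proteins in solved human mitoribosomes, and MRPS36, also named KGD4, is now known as part of the 2-oxoglutarate dehydrogenase complex. They were kept where their symbol puts them.

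Libraries held 78862372 to 105571090 rounded counts, of which the 77 genes took a mean of 0.284% (BAY in hypoxia) to 0.307% (TGF-β1 alone). Mitochondrially encoded transcripts took 3.59% and 3.65% of counts in hypoxia with BAY and with solvent, 5.34% and 5.20% with TGF-β1 plus BAY and TGF-β1 alone, and 7.39% and 7.29% in normoxia with BAY and with solvent. Epithelial keratins were high (KRT8 averaged 629 CPM, counts scaled to a common library total), and of the proximal tubule markers GGT1 averaged 166 CPM, while LRP2 and SLC22A6 averaged 0.151 CPM and 0 CPM. In the lists of other cell types some genes were at or near 0 and others were not. Of the immune list PTPRC averaged 0.0224 CPM, against 159 CPM for CD74 and 132 CPM for CD68. Of the distal nephron list UMOD and AQP2 had no count in any of the 24 libraries, against a mean of 19.2 CPM for SCNN1A. PECAM1 of the endothelial list averaged 0.0305 CPM, against 1.67 CPM for ERG. Among the 15 libraries of the solvent normoxia, TGF-β1 and TGF-β1 plus BAY groups, 2 subsets stood apart on the first component of the variation within groups, which held 19.2% of it. Subset 1 was solvent 1, 2 and 5, TGF-β1 alone 1 and 2, and TGF-β1 plus BAY 1 and 2, and subset 2 was the rest. The labels name no batch. In solvent normoxia 45 of 47 large-subunit genes (MRPL45 left out) and 28 of 29 small-subunit genes were lower in subset 2, with a median log2 difference of -0.13 in each. With TGF-β1 alone 26 of 47 and 21 of 29 were lower (medians -0.014 and -0.037), and with TGF-β1 plus BAY 20 of 47 and 12 of 29 (medians 0.030 and 0.019). These differences are of TMM-scaled levels, and the share over all genes was not computed. Results against the solvent normoxia controls are therefore also given within subsets.

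Levels below are CPM scaled by the trimmed mean of M-values (TMM). MRPL12, the stalk protein through which translation factors reach the ribosome, read 42.3, 41.7 and 40.8 CPM with BAY in hypoxia and 47.0, 51.3 and 57.6 CPM with solvent in hypoxia. It read 49.7, 46.6 and 43.6 CPM with BAY in normoxia, 60.9, 59.4, 66.8, 63.8 and 70.6 CPM with TGF-β1 plus BAY, 71.1, 70.4, 70.0, 68.1 and 69.4 CPM with TGF-β1 alone and 64.6, 60.4, 57.4, 58.3 and 66.4 CPM with solvent in normoxia. The TGF-β1 libraries held the highest values, 1 TGF-β1 plus BAY library among them, and all 3 libraries of BAY in hypoxia were below every other library. MRPL12 lies at chr17:81703357-81707526 on the plus strand (GRCh38, GENCODE release 29). Of its annotated exon bases, 68.2% are shared on the same strand with AC139530.2, which averaged 0.0262 CPM.

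Per kilobase of the longest protein-coding transcript, the solvent normoxia levels ran over a wide range around a median of 21.7 CPM per kb. MRPL3, which lies near the peptidyl transferase centre, was highest at 71.7 ± 6.18 CPM per kb (SD, n = 5), and it also ranked first when the mean transcript length was used. On the longest transcript, MRPS24, MRPS26, MRPL37 and MRPL12 followed at 62.8 ± 4.46, 60.4 ± 1.72, 59.9 ± 2.28 and 59.8 ± 3.82 CPM per kb. These 4 did not differ by more than their spread. At the other end, MRPL45, a member that binds the inner membrane, stood at 0.0429 ± 0.0283 CPM per kb, with 0 to 0.494 CPM over all 24 libraries. The next lowest mean over all libraries, that of MRPS12, was 6.52 CPM. Whether other IDs of the table, such as the 6261 without a symbol here, hold copies of MRPL45 that share its reads was not tested, so the value may not be the gene's whole level. MRPL45 is therefore left out of the ratios between group means, the shared signs and correlations across BAY settings, and the figures of fold changes. The large-subunit sums, calls and medians keep all 48 genes. MRPL42 read 3.90 CPM per kb on its longest transcript of 15582 bases but 15.3 CPM per kb on its mean transcript length, so its place in the order depends on that choice. The order just below MRPL3 depends on it too. MRPL51, for example, has a longest transcript of 1234 bases but a mean transcript length of 629 bases.

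Between the 6 groups, the highest group mean of a gene was a median of 1.49 times its lowest over the 76 genes without MRPL45. For 36 of the 76 this ratio was above 1.5, for 8 it was above 2, and MRPS6 was the widest at 3.33. The peak fell in TGF-β1 alone for 32 genes and in BAY in hypoxia for 18. The trough fell in BAY in normoxia for 28 genes and in BAY in hypoxia for 22.

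Summed over the 48 large-subunit genes, the level was 1625 ± 2.28 CPM with BAY in hypoxia, 1572 ± 99.9 CPM with solvent in hypoxia, 1526 ± 48.1 CPM with BAY in normoxia, 1911 ± 39.2 CPM with TGF-β1 plus BAY, 1921 ± 14.6 CPM with TGF-β1 alone and 1630.5 ± 85.2 CPM with solvent in normoxia. The 29 small-subunit genes summed to 1319 ± 6.97, 1347 ± 77.6, 1140.2 ± 30.8, 1235 ± 14.9, 1262 ± 11.6 and 1236 ± 50.7 CPM in the same groups. The large sum over the small sum, which needs no scaling between libraries, was 1.23 ± 0.00571 with BAY in hypoxia, 1.17 ± 0.0115 with solvent in hypoxia, 1.34 ± 0.00777 with BAY in normoxia, 1.55 ± 0.0145 with TGF-β1 plus BAY, 1.52 ± 0.00649 with TGF-β1 alone and 1.32 ± 0.0173 with solvent in normoxia. The 5 TGF-β1 libraries ran from 1.51 to 1.53 and the 3 solvent hypoxia libraries from 1.15 to 1.17, against 1.29 to 1.34 in solvent normoxia, so neither group overlapped the controls. Leaving out MRPL3, MRPL37 and MRPS6, the highest and the most variable members, left ratios of 1.08 ± 0.0103 in solvent hypoxia and 1.33 ± 0.00742 with TGF-β1 alone, against 1.18 ± 0.0154 in solvent normoxia. With these 3 genes left out, BAY in hypoxia stood at 1.09 ± 0.00942, within 1 SD of solvent in hypoxia.

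**Figure D1:**
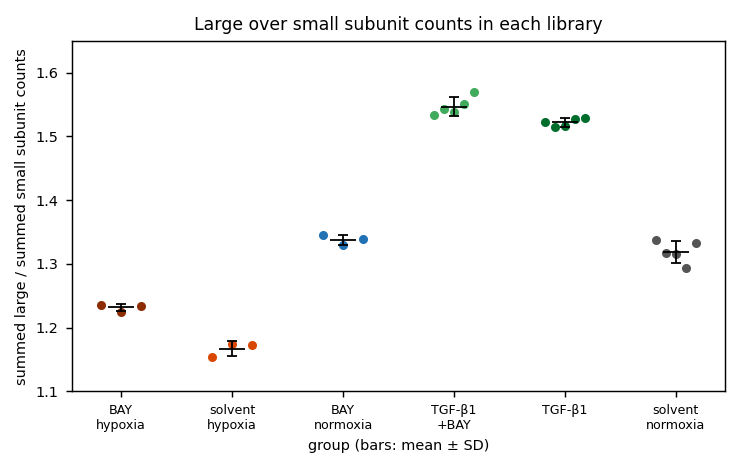
Ratio of the summed large-subunit to the summed small-subunit counts in each library (vertical axis, starting at 1.1), by group (horizontal axis), with the mean and SD. The 5 TGF-β1 libraries lie at 1.51 to 1.53 and the solvent hypoxia libraries at 1.15 to 1.17, above and below the solvent normoxia libraries at 1.29 to 1.34.

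Promoters are shown for 5 of the members called the same way with BAY in every setting. MRPL3 and MRPL33 were higher, and MRPL36, MRPL4 and MRPS23 were lower. MRPL14 and MRPL34 were also lower in every setting, and their windows are not printed. RefSeq (GRCh38.p14) gave a window for 69 of the 77 genes, from 250 bases before to 50 bases after the annotated start, and the 250 bases before the start are printed 5′ to 3′ on the gene's strand. Capitals mark matches, on either strand, to CCGGAAG (ETS factors such as GABP), CACGTG (E-box), ACGTG (the core of the hypoxia response element, which every E-box of this spelling contains) or a motif of NRF1 or YY1. The NRF1 and YY1 matches in MRPL36 are its first and last runs of capitals, both on the opposite strand.
MRPL3 (chr3:131502972-131503221, minus strand): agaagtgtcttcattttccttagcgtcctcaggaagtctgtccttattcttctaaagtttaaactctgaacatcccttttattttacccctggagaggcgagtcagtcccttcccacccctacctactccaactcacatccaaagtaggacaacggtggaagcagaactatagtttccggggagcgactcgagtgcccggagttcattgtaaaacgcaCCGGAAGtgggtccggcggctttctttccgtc
MRPL33 (chr2:27771469-27771718, plus strand): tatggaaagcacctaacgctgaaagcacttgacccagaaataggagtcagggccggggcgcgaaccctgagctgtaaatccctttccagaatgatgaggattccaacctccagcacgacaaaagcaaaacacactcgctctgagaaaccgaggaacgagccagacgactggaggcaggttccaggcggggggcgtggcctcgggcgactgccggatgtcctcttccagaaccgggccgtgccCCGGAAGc
MRPL36 (chr5:1799838-1800087, minus strand): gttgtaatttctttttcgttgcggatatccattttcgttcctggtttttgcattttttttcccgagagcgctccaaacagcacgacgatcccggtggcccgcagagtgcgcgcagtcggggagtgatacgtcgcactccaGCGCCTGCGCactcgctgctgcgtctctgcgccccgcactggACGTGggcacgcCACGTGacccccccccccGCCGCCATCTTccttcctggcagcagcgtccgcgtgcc
MRPL4 (chr19:10251701-10251950, plus strand): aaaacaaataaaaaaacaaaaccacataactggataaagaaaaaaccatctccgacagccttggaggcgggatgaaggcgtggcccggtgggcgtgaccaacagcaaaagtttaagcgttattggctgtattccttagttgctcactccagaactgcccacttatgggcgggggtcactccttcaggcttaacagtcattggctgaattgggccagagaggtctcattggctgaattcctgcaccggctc
MRPS23 (chr17:57850045-57850294, minus strand): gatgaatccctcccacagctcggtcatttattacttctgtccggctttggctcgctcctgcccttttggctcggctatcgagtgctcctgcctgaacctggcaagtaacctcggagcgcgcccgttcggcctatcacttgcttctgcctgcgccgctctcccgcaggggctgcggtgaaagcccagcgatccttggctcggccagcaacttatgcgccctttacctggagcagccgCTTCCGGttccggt
The ETS letters of MRPL3, MRPL33 and MRPS23 begin 32, 8 and 14 bases before the start. The MRPL36 window held NRF1, E-box and YY1 letters beginning 110, 56 and 38 bases before the start, and the MRPL4 window held none of the 5 motifs.

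Among the 69 windows, 42.0% held the ETS letters (40.5% of 42 large-subunit and 44.4% of 27 small-subunit windows), against 10.7% of all 27305 windows in the RefSeq table and 14.2% of the 15843 windows of protein-coding genes. The YY1 letters stood in 14.5% of member windows, against 0.916% of all windows and 1.37% of protein-coding windows. For NRF1 the shares were 11.6%, 6.29% and 8.58%, for the E-box 8.70%, 7.44% and 8.88%, and for ACGTG 27.5%, 21.6% and 23.7%. These are counts of letters in a window and not of bound sites.

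Hypoxia (solvent in 0.3% oxygen against solvent in normoxia) moved the genes in both directions. Of the 48 large-subunit genes 9 rose and 22 fell, and of the 29 small-subunit genes 12 rose and 10 fell. The change was therefore mixed within each subunit, with median log2 fold changes of -0.10 and 0.12, beside -0.019 for all genes tested. MRPS6 and MRPS2 of the small subunit and MRPL10 and MRPL21 of the large subunit rose most, and MRPS11, MRPL34, MRPS16 and MRPS10 fell most. Calls are edgeR quasi-likelihood tests at a Benjamini-Hochberg adjusted p below 0.05 over the 21316 genes of the hypoxia experiment. At that threshold 60.8% of all genes tested were called (29.2% higher, 31.6% lower), and 75.6% of genes of at least 5 CPM (35% higher, 40.6% lower), against 64.6% of large-subunit and 75.9% of small-subunit genes. The members' shares were thus near the background. With controls of subset 2 alone the large subunit split into 14 higher and 15 lower, and with subset 1 alone into 9 and 24. The small-subunit median ranged from 0.049 without solvent hypoxia library 3 to 0.18 without library 1, and was 0.044 with library totals alone. P-values here and below measure the spread between these cultures, which the labels call biological replicates without saying what separated them.

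MRPS6, a small-subunit protein with a bacterial counterpart (chr21:34073224-34143034, plus strand), read 93.6, 87.2 and 104 CPM in solvent hypoxia and 37.3, 34.7, 29.8, 29.6 and 37.1 CPM in solvent normoxia. Every hypoxic library was well above any normoxic one (log2 fold change 1.5, SE 0.098, edgeR adjusted p = 1.57e-08). The gene shares 273 exon bases, 6.35% of its own, on the same strand with SLC5A3, the sodium-dependent inositol transporter, which averaged 177 CPM and rose by 2.53 on the log2 scale in hypoxia. The part of these shared bases in the MRPS6 value was not tested.

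MRPL10, which anchors the stalk formed by MRPL12, read 75.9, 75.1 and 79.5 CPM in solvent hypoxia and 45.1, 41.3, 39.8, 40.5 and 45.9 CPM in solvent normoxia (log2 fold change 0.86, SE 0.043, edgeR adjusted p = 1.26e-10). Its partner MRPL12 went the other way (log2 fold change -0.24, SE 0.061, edgeR adjusted p = 0.00283), and its groups overlapped: with controls of subset 2 alone MRPL12 was not called (adjusted p = 0.115). MRPL21 read 25.9, 26.5 and 30.8 CPM in solvent hypoxia and 19.5, 17.6, 17.6, 17.1 and 19.4 CPM in solvent normoxia (log2 fold change 0.61, SE 0.06, edgeR adjusted p = 2.62e-07). For MRPL10 and MRPL21 all hypoxic libraries lay above all normoxic ones. MRPS2, a small-subunit protein, read 100.03, 98.8 and 108 CPM in solvent hypoxia and 72.4, 71.9, 62.5, 62.9 and 73.2 CPM in solvent normoxia (log2 fold change 0.58, SE 0.047, edgeR adjusted p = 2.88e-08), again without overlap.

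MRPS11, a small-subunit protein with a bacterial counterpart, read 12.1, 11.6 and 12.0 CPM in solvent hypoxia and 23.0, 22.1, 21.5, 21.3 and 22.7 CPM in solvent normoxia (log2 fold change -0.90, SE 0.05, edgeR adjusted p = 4.44e-10). Its start lies 34 bases from that of the large-subunit gene MRPL46, which is transcribed the other way, and MRPL46 did not pass the test (log2 fold change 0.035, edgeR adjusted p = 0.71). MRPL34, a small large-subunit protein with a bacterial counterpart, read 10.9, 11.0 and 10.8 CPM in solvent hypoxia and 19.3, 19.8, 18.7, 19.4 and 20.6 CPM in solvent normoxia (log2 fold change -0.84, SE 0.049, edgeR adjusted p = 5.88e-10). The 3 hypoxic libraries of both genes were nearly alike and far from the controls. MRPS16, a small-subunit protein with a bacterial counterpart, read 52.9, 54.5 and 52.6 CPM in solvent hypoxia and 91.3, 87.3, 83.9, 84.4 and 94.8 CPM in solvent normoxia (log2 fold change -0.73, SE 0.041, edgeR adjusted p = 4.8e-10). It shares 20 exon bases with DNAJC9, which fell by 0.96 on the log2 scale. MRPS10 read 24.0, 24.0 and 26.7 CPM in solvent hypoxia and 41.6, 41.2, 38.5, 38.2 and 45.3 CPM in solvent normoxia (log2 fold change -0.72, SE 0.051, edgeR adjusted p = 6.37e-09).

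The member with the highest level also fell. MRPL3 read 85.7, 83.1 and 92.2 CPM in solvent hypoxia and 133, 125, 112, 110.3 and 131 CPM in solvent normoxia, with no overlap (log2 fold change -0.49, SE 0.058, edgeR adjusted p = 1.99e-06). Among the 3 paralogues of the bacterial protein S18, MRPS18B rose (log2 fold change 0.42, SE 0.04, edgeR adjusted p = 1.43e-07), MRPS18C fell (log2 fold change -0.31, SE 0.055, edgeR adjusted p = 0.000138) and MRPS18A stood at 0.026 without passing the test. Of the MRPS18C exon bases 40.2% are shared with ABRAXAS1 on the opposite strand. ABRAXAS1 averaged 27.2 CPM, with log2 fold changes of 0.90 in hypoxia and -0.24 with TGF-β1. The part of these shared bases in the MRPS18C values was not tested. MRPS30, a large-subunit protein by structure, rose (log2 fold change 0.34, SE 0.038, edgeR adjusted p = 1.45e-06).

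**Figure D2:**
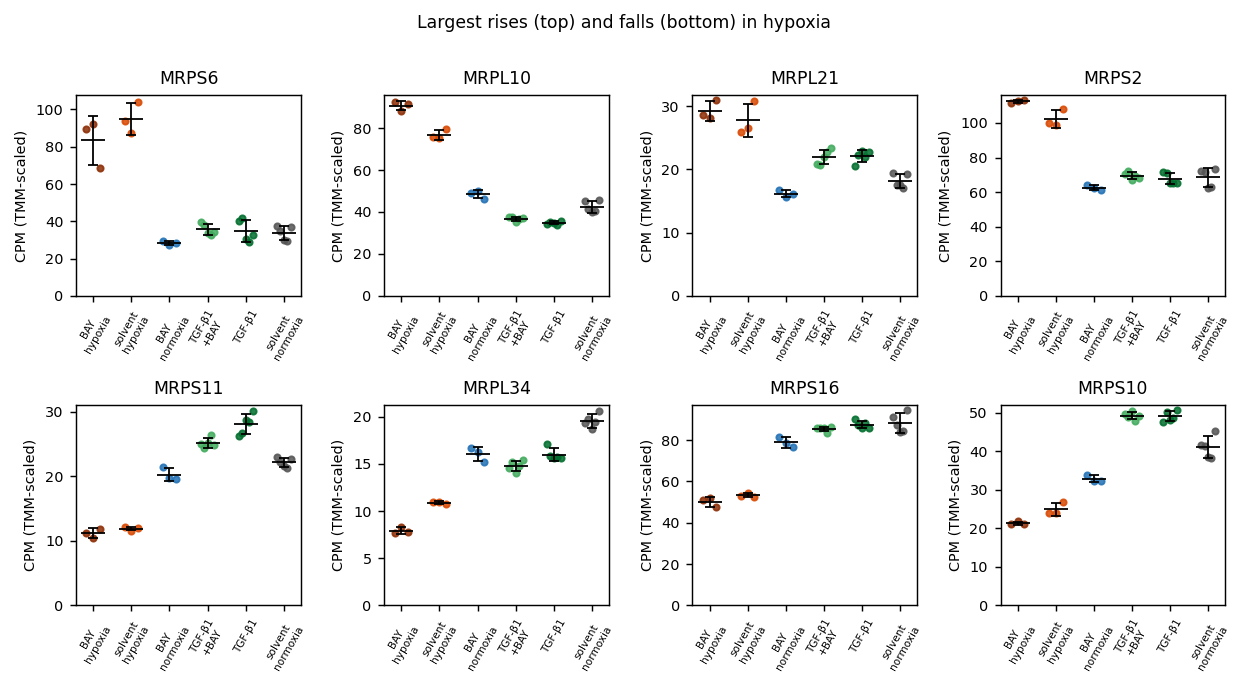
TMM-scaled CPM (vertical axes, from 0) of the 4 genes with the largest rises in hypoxia (top) and the 4 with the largest falls (bottom) in every library, by group (horizontal axes), with mean and SD. The solvent hypoxia libraries of MRPS6 lie at 87.2 to 104 CPM and those of MRPS11 at 11.6 to 12.1 CPM, on opposite sides of the solvent normoxia libraries.

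The mitochondrially encoded mRNAs and the cytosolic ribosomal proteins moved almost entirely 1 way in hypoxia. All 13 mitochondrially encoded mRNAs fell, with a median log2 fold change of -1.52. MT-CO3, a subunit of cytochrome c oxidase, averaged 1207 ± 86.1 CPM in solvent hypoxia and 4947 ± 131 CPM in solvent normoxia (SD; 3 and 5 libraries), a log2 fold change of -2.03, SE 0.06, edgeR adjusted p = 3.88e-13. Of the mitochondrial rRNAs, MT-RNR1 rose and MT-RNR2 fell, though poly(A) libraries catch rRNA poorly. Of 76 cytosolic ribosomal protein genes, 74 rose and 1 fell, with a median of 0.57. Of 22 genes for mitochondrial transcription and RNA processing 3 rose and 13 fell. TFAM, which packages mitochondrial DNA and starts its transcription, averaged 74.4 ± 0.539 CPM in solvent hypoxia and 107 ± 2.24 CPM in solvent normoxia (log2 fold change -0.52, SE 0.037, edgeR adjusted p = 6.4e-09). Of 27 assembly factors 7 rose and 15 fell, led by MPV17L2, an inner-membrane assembly factor (log2 fold change -1.91, SE 0.092, edgeR adjusted p = 7.35e-11). Of 16 translation factors 4 rose and 8 fell, among them the elongation factor GFM1 (log2 fold change -0.99, SE 0.033, edgeR adjusted p = 1.57e-12), of 22 aminoacyl-tRNA synthetase genes 6 rose and 9 fell (7 and 6 with RLE size factors, the scaling of DESeq2), of 11 regulators of mitochondrial biogenesis 3 rose and 7 fell, and of 6 mitoribosome proteins with other symbols 2 rose and 2 fell. In bulk RNA, fewer cells of a kind and less RNA per cell cannot be told apart. The summed podocyte marker list read 451 to 486 CPM in solvent hypoxia and 69.0 to 90.2 CPM in solvent normoxia, carried by SYNPO, and its part in these values was not tested.

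With TGF-β1 alone against solvent in normoxia, large-subunit genes mostly rose. Of the 48, 31 rose and 3 fell (MRPL10, MRPL15 and MRPL34), and of the 29 small-subunit genes 9 rose and 4 fell (MRPS26, MRPS30, MRPS33 and MRPS36). MRPL37, MRPL16, MRPL18 and MRPL39 rose most, by 0.48 to 0.67 on the log2 scale. Median log2 fold changes were 0.20 for the large and 0.045 for the small subunit, beside -0.043 for all 21639 genes tested. Of all genes tested 62% were called (29.5% higher, 32.5% lower), and of genes of at least 5 CPM 76.1% (41% higher, 35.1% lower), against 70.8% of large- and 44.8% of small-subunit genes. Scaling by library totals alone shifted the median of all genes by -0.13, and then 20 large-subunit genes were higher and 12 lower (median 0.069), while the small subunit turned to 6 higher and 13 lower (median -0.087). Within subset 1 the large subunit had 30 higher and 4 lower with a median of 0.18, within subset 2 it had 35 and 2 with 0.27, and with subset as a term 32 and 3. The small subunit had 11 higher and 5 lower within subset 1 (median 0.070), 14 and 4 within subset 2 (median 0.12), and 14 and 5 with subset as a term (median 0.053).

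MRPL37, a large-subunit protein found only in mitochondrial ribosomes (chr1:54184041-54225464, plus strand), read 147, 143, 156, 153 and 155 CPM with TGF-β1 and 97.5, 93.4, 93.3, 90.1 and 99.2 CPM in solvent normoxia (log2 fold change 0.67, SE 0.034, edgeR adjusted p = 3.85e-12). MRPL16, a large-subunit protein with a bacterial counterpart, read 21.0, 20.9, 20.3, 20.7 and 21.5 CPM with TGF-β1 and 13.1, 14.0, 12.2, 13.0 and 14.4 CPM in solvent normoxia (log2 fold change 0.64, SE 0.041, edgeR adjusted p = 1.17e-10). Both genes had every TGF-β1 library above every control. MRPL18, reported to take part in the import of cytosolic ribosomal RNA into human mitochondria, read 52.4, 52.4, 47.8, 49.0 and 50.6 CPM with TGF-β1 and 34.5, 34.2, 31.2, 30.8 and 35.6 CPM in solvent normoxia (log2 fold change 0.60, SE 0.042, edgeR adjusted p = 4.76e-10). MRPL39 read 22.5, 21.7, 21.5, 22.6 and 22.7 CPM with TGF-β1 and 16.4, 15.5, 14.8, 16.0 and 16.9 CPM in solvent normoxia (log2 fold change 0.48, SE 0.047, edgeR adjusted p = 4.81e-08). MRPL18 and MRPL39 did not overlap between the groups either.

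The falls were smaller. MRPL34 read 17.1, 15.9, 15.6, 15.7 and 15.6 CPM with TGF-β1 and 19.3, 19.8, 18.7, 19.4 and 20.6 CPM in solvent normoxia (log2 fold change -0.29, SE 0.041, edgeR adjusted p = 4.69e-06). MRPL10 read 34.2, 35.4, 34.9, 34.0 and 35.6 CPM with TGF-β1 and 45.1, 41.3, 39.8, 40.5 and 45.9 CPM in solvent normoxia (log2 fold change -0.29, SE 0.039, edgeR adjusted p = 2.91e-06). Both were separated from the controls in every library. MRPS26, a small-subunit protein specific to mitochondria, fell (log2 fold change -0.26, SE 0.031, edgeR adjusted p = 7.05e-07), as did MRPS30 (log2 fold change -0.20, SE 0.028, edgeR adjusted p = 7.77e-06), both without overlap. MRPS18C rose (log2 fold change 0.26, SE 0.041, edgeR adjusted p = 2.1e-05), while MRPS18A and MRPS18B stood at 0.086 and -0.051 without passing the test. MRPL12 rose (log2 fold change 0.18, SE 0.05, edgeR adjusted p = 0.00354) but not with library totals alone (adjusted p = 0.387).

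Of 6 mitoribosome proteins with other symbols 4 rose with TGF-β1 and 2 fell, and AURKAIP1, which is a small-subunit protein, rose (log2 fold change 0.59, SE 0.042, edgeR adjusted p = 4.97e-10). The 27 assembly factors had 11 higher and 6 lower, with MPV17L2 at 13.2 ± 0.926 CPM with TGF-β1 and 7.90 ± 0.553 CPM in solvent normoxia (SD; 5 libraries each), a log2 fold change of 0.74, SE 0.072, edgeR adjusted p = 4.19e-08. The 22 transcription and RNA processing genes had 9 higher and 4 lower. Among them POLRMT, the mitochondrial RNA polymerase, averaged 72.4 ± 4.00 CPM with TGF-β1 and 43.2 ± 2.01 CPM in solvent normoxia (log2 fold change 0.74, SE 0.039, edgeR adjusted p = 6.75e-12). Of the mitochondrially encoded mRNAs, 12 of 13 fell, with a median log2 fold change of -0.22. Cytosolic ribosomal proteins had 8 higher and 28 lower, with a median of -0.083, and 3 and 64 with a median of -0.21 with library totals alone. PPARGC1A, a coactivator of mitochondrial biogenesis, averaged 16.3 ± 1.85 CPM with TGF-β1 and 69.8 ± 2.11 CPM in solvent normoxia (log2 fold change -2.10, SE 0.084, edgeR adjusted p = 2.65e-13). Translation factors had 6 higher and 2 lower of 16, and aminoacyl-tRNA synthetases 7 higher and 8 lower of 22, and regulators 6 higher and 4 lower of 11. The log2 fold changes of the regulators ran from -2.10, that of PPARGC1A, to 1.93, with a median of 0.25. With library totals alone the assembly factors turned to 7 higher and 11 lower, the translation factors to 2 and 8, the synthetases to 3 and 12, and the transcription and RNA processing genes to 8 and 8. MT-RNR2 fell and MT-RNR1 was not called. The summed proximal tubule markers read 80.9 to 105.97 CPM with TGF-β1 and 198 to 232 CPM in solvent normoxia. That sum was nearly all GGT1 (means of 87.3 and 201.7 CPM in that order), while CUBN (1.78 and 0.489 CPM) and AQP1 (1.52 and 0.0229 CPM) were higher with TGF-β1. The fibroblast list read 286 to 299.6 CPM with TGF-β1 and 109.9 to 134 CPM in solvent normoxia, carried by COL1A1, with LUM at 58.6 and 82.0 CPM and with COL1A2, COL3A1 and THY1 at 0 in some libraries. The distal nephron list read 3.32 to 3.64 CPM with TGF-β1 and 33.6 to 37.4 CPM in solvent normoxia, carried by SCNN1A, the immune list 219 to 248 CPM and 371 to 395 CPM in the same order, and the part of these lists in the results was not tested.

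**Figure D3:**
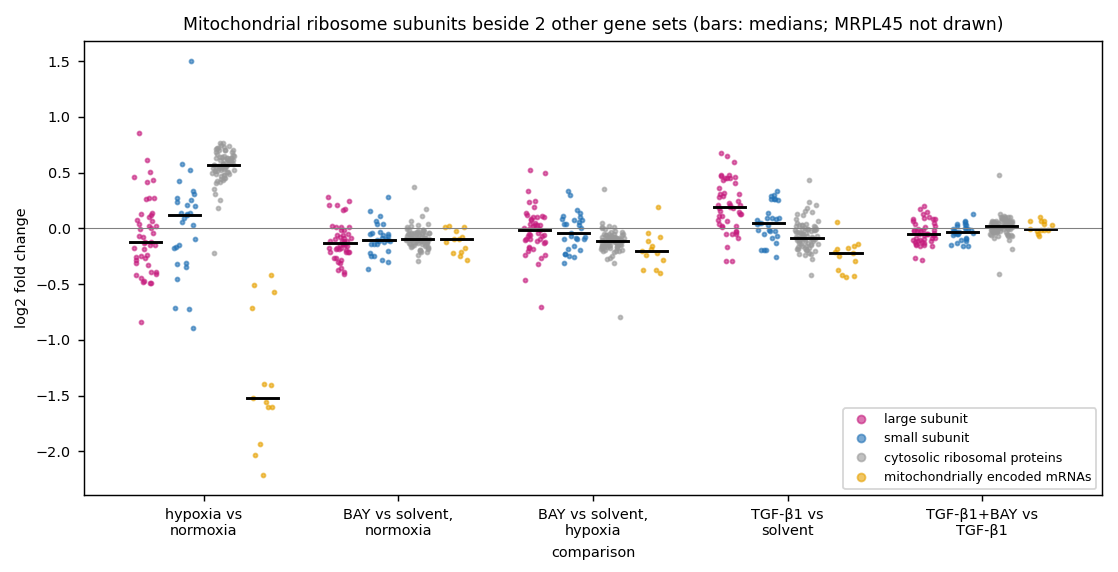
Log2 fold change (vertical axis) of each large-subunit, small-subunit, cytosolic ribosomal protein and mitochondrially encoded gene in the 5 comparisons (horizontal axis), 1 dot per gene, with a bar at the median. MRPL45 is not drawn, and the large-subunit medians given here include it. In hypoxia the medians are -1.52 for mitochondrially encoded mRNAs and 0.57 for cytosolic ribosomal proteins, with both mitoribosome subunits spread around 0, and with TGF-β1 the large-subunit median is 0.20, or 0.069 with library totals alone.

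BAY 60-2770 was compared with its own reference in 3 settings that share no library, namely solvent in normoxia, solvent in hypoxia and TGF-β1 alone. In normoxia 24 large-subunit genes fell and 5 rose, and 9 small-subunit genes fell and 2 rose, with median log2 fold changes of -0.12 and -0.10. In hypoxia 12 large-subunit genes fell and 6 rose, and 5 small-subunit genes fell and 2 rose (medians -0.011 and -0.038). On top of TGF-β1, 8 large-subunit genes fell and 3 rose, and 4 small-subunit genes fell and 1 rose (medians -0.048 and -0.035). The medians of all genes tested were 0.004, -0.025 and 0.006 in these settings. MRPL3 and MRPL33 rose, and MRPL36, MRPL4, MRPL14, MRPL34 and MRPS23 fell, in all 3 settings. Of all genes tested 43.9% were called in normoxia (20.6% higher, 23.3% lower), 37.9% in hypoxia (16.5% higher, 21.4% lower) and 29.5% on TGF-β1 (13.9% higher, 15.6% lower). Of genes of at least 5 CPM the shares were 57.5% in normoxia (24.9% higher, 32.6% lower), 51.7% in hypoxia (23.8% higher, 27.9% lower) and 41.5% on TGF-β1 (18.9% higher, 22.5% lower). Against that background 60.4% and 37.9% of large- and small-subunit genes were called in normoxia, 37.5% and 24.1% in hypoxia and 22.9% and 17.2% on TGF-β1.

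The normoxia counts depended on the controls. Against the 3 solvent libraries of subset 1, 29 large-subunit genes fell and 4 rose (median -0.19), and 19 small-subunit genes fell and 3 rose (median -0.16). Against the 2 solvent libraries of subset 2 the counts were 12 and 5 (median -0.066), and 4 and 3 (median -0.054). Without BAY normoxia library 2, 14 large-subunit genes fell and 4 rose. In hypoxia the small subunit had 4 lower and 7 higher without solvent hypoxia library 3, with a median of 0.036 in place of -0.038. On TGF-β1 the large subunit had 5 lower and 2 higher without TGF-β1 library 4, and 13 lower and 6 higher with subset as a term.

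MRPL36, a zinc-binding protein with a bacterial counterpart, fell furthest where oxygen was low. It read 11.1, 12.0 and 11.9 CPM with BAY in hypoxia and 18.8, 18.2 and 19.7 CPM with solvent in hypoxia (log2 fold change -0.70, SE 0.055, edgeR adjusted p = 9.46e-08). In normoxia it read 16.0, 15.9 and 15.6 CPM with BAY and 21.5, 21.8, 19.9, 19.5 and 22.5 CPM with solvent (log2 fold change -0.39, SE 0.049, edgeR adjusted p = 1e-05). With TGF-β1 it read 16.4, 15.2, 15.8, 16.5 and 17.4 CPM with BAY added and 18.8, 19.8, 19.8, 19.3 and 21.4 CPM without (log2 fold change -0.28, SE 0.047, edgeR adjusted p = 0.000127). The groups did not overlap in any of the 3 settings. The fall in hypoxia exceeded that in normoxia (interaction -0.31, SE 0.073, edgeR adjusted p = 0.00829), although without BAY normoxia library 1 or 2 that difference had an adjusted p of 0.0542 or 0.0529. The GENCODE start of MRPL36 lies 34 bases from that of NDUFS6, which is transcribed the other way. GENCODE places MRPL36 at chr5:1798386-1801366 on the minus strand. The RefSeq window printed above therefore lies inside the GENCODE gene and does not reach its GENCODE start. With BAY, NDUFS6 changed by -0.55 in hypoxia, -0.32 in normoxia and -0.11 on TGF-β1 (not called) on the log2 scale. A link between these genes was not tested.

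MRPL4, which lines the polypeptide exit tunnel, read 28.8, 25.2 and 25.3 CPM with BAY and 37.7, 35.5, 35.5, 33.8 and 35.8 CPM with solvent in normoxia (log2 fold change -0.41, SE 0.06, edgeR adjusted p = 4.76e-05). In hypoxia it read 25.7, 24.8 and 28.3 CPM with BAY and 29.5, 30.7 and 34.2 CPM with solvent (log2 fold change -0.26, SE 0.067, edgeR adjusted p = 0.00546). With TGF-β1 it read 28.6, 28.5, 29.9, 30.3 and 32.1 CPM with BAY added and 35.5, 35.6, 36.2, 36.1 and 36.6 CPM without (log2 fold change -0.27, SE 0.041, edgeR adjusted p = 6.12e-05). All BAY libraries were below their references in each setting. MRPS23, a small-subunit protein without a bacterial counterpart, read 37.1, 34.5 and 33.8 CPM with BAY and 46.9, 46.7, 44.0, 43.0 and 47.8 CPM with solvent in normoxia (log2 fold change -0.36, SE 0.051, edgeR adjusted p = 3.78e-05). It also fell in hypoxia (log2 fold change -0.25, SE 0.058, edgeR adjusted p = 0.00233) and on TGF-β1 (log2 fold change -0.16, SE 0.032, edgeR adjusted p = 0.000836), without overlap in either.

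MRPL34 read 7.65, 8.32 and 7.81 CPM with BAY in hypoxia and 10.9, 11.0 and 10.8 CPM with solvent in hypoxia (log2 fold change -0.46, SE 0.054, edgeR adjusted p = 6.39e-06), its lowest values in the series. In normoxia it stood at -0.27, SE 0.047, edgeR adjusted p = 0.00028. On TGF-β1 the fall was -0.11, SE 0.041, edgeR adjusted p = 0.0491, and it was no longer called when any 1 of 8 of the 10 libraries was left out (adjusted p of 0.0526 to 0.139) or within either subset (adjusted p = 0.0521 and 0.213). MRPL14, the contact point of the silencing factor MALSU1, fell by 0.26, 0.17 and 0.14 on the log2 scale in normoxia, in hypoxia and on TGF-β1.

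The rises were of similar size. MRPL3 read 127, 132 and 117 CPM with BAY and 85.7, 83.1 and 92.2 CPM with solvent in hypoxia (log2 fold change 0.52, SE 0.064, edgeR adjusted p = 9.64e-06). In normoxia it read 146, 140.1 and 141 CPM with BAY and 133, 125, 112, 110.3 and 131 CPM with solvent (log2 fold change 0.24, SE 0.056, edgeR adjusted p = 0.00252), and with TGF-β1 it read 157, 157, 161, 151 and 158 CPM with BAY added and 144, 142, 135, 135 and 138 CPM without (log2 fold change 0.18, SE 0.045, edgeR adjusted p = 0.00609). No setting had overlapping groups. BAY in hypoxia thus stood near the solvent normoxia level of MRPL3, which hypoxia alone had lowered.

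MRPL33, another small protein with a bacterial counterpart, read 27.1, 28.3 and 26.7 CPM with BAY and 18.2, 18.2 and 21.5 CPM with solvent in hypoxia (log2 fold change 0.50, SE 0.08, edgeR adjusted p = 0.000127), and 32.2, 29.9 and 28.9 CPM with BAY and 25.9, 26.8, 23.2, 22.4 and 28.3 CPM with solvent in normoxia (log2 fold change 0.28, SE 0.07, edgeR adjusted p = 0.00391). With TGF-β1 it read 44.4, 41.5, 38.1, 38.4 and 40.7 CPM with BAY added and 38.2, 38.7, 33.0, 32.3 and 34.2 CPM without, where the groups overlapped (log2 fold change 0.20, SE 0.068, edgeR adjusted p = 0.0305). That call was lost without any 1 of 5 of the 10 libraries (adjusted p of 0.0561 to 0.0832) and within subset 1 (adjusted p = 0.0510). Of its exon bases 21.1% are shared on the same strand with BABAM2, which averaged 31.0 CPM and had log2 fold changes of 0.21, 0.20 and 0.089 with BAY in hypoxia, in normoxia and on TGF-β1, and the part of the shared bases was not tested.

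Over the 76 genes without MRPL45, 35 had a log2 fold change below 0 with BAY in all 3 settings, 46.1% against 26.0% of all 20928 genes tested in both fits. Called lower in all 3 were 6.49% of the 77 members and 7.67% of those genes, and called higher in all 3 were 2.60% and 5.01%, so these shares were near or below the background. Across the 76 genes, Pearson's r was 0.716 between BAY in normoxia and in hypoxia, 0.654 between BAY in normoxia and on TGF-β1 and 0.596 between BAY in hypoxia and on TGF-β1, against 0.385, 0.351 and 0.238 across all genes. These are correlations across genes, which are not independent replicates, and each comparison's log2 fold changes come from 1 set of libraries shared by all genes. The 20928 genes include those below 5 CPM, while each of the 76 averaged 6.52 CPM or more. Shares and r for genes of at least 5 CPM were not computed, so the part of expression level in these gaps was not tested.

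**Figure D4:**
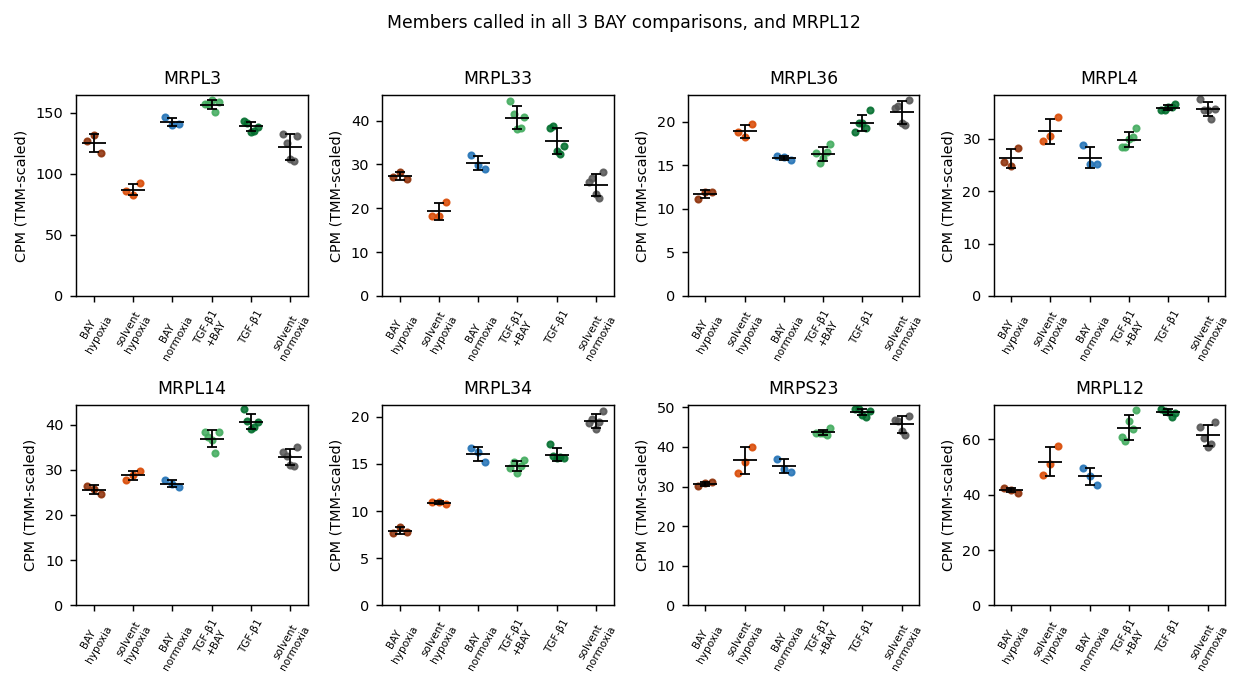
TMM-scaled CPM (vertical axes, from 0) in every library, by group (horizontal axes), with mean and SD, for the 7 genes called in the same direction with BAY in all 3 settings and for MRPL12. MRPL36 with BAY lies below its reference in each setting, at 11.1 to 12.0 CPM in hypoxia against 18.2 to 19.7 CPM with solvent in hypoxia.

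MRPL12 fell with BAY in normoxia (log2 fold change -0.38, SE 0.061, edgeR adjusted p = 0.000124) and in hypoxia (log2 fold change -0.32, SE 0.068, edgeR adjusted p = 0.00138), without overlap in the library values given above. On TGF-β1 it stood at -0.12, SE 0.05, edgeR adjusted p = 0.0816, with overlapping groups. MRPL10, which anchors MRPL12 in the stalk, rose in the same settings (log2 fold changes 0.21, SE 0.044, edgeR adjusted p = 0.00123, and 0.23, SE 0.049, edgeR adjusted p = 0.00132). MRPS36 rose with BAY in normoxia (log2 fold change 0.28, SE 0.055, edgeR adjusted p = 0.00059) and in hypoxia (log2 fold change 0.34, SE 0.062, edgeR adjusted p = 0.000434). It read 20.1, 19.6, 19.5, 19.8 and 20.1 CPM with TGF-β1 plus BAY and 21.3, 19.3, 20.01, 19.3 and 19.6 CPM with TGF-β1 alone (log2 fold change -0.006, not called). MRPL57 and MRPS18A, both large-subunit proteins by structure, rose in hypoxia (log2 fold changes 0.34, SE 0.06, edgeR adjusted p = 0.000347, and 0.30, SE 0.069, edgeR adjusted p = 0.00247). MRPS26 fell in hypoxia (log2 fold change -0.31, SE 0.045, edgeR adjusted p = 5.17e-05), MRPL55 rose in normoxia with overlapping groups (log2 fold change 0.21, SE 0.072, edgeR adjusted p = 0.0266), a call lost without any 1 of BAY normoxia 1 or 2 and solvent normoxia 1 or 2 (adjusted p of 0.0586 to 0.163) and with controls of subset 2 (adjusted p = 0.172), and MRPL42 rose on TGF-β1 (log2 fold change 0.15, SE 0.025, edgeR adjusted p = 0.000228). In hypoxia MRPL42 fell (log2 fold change -0.13, SE 0.039, edgeR adjusted p = 0.0194), a call lost without BAY hypoxia library 3 or solvent hypoxia library 3 (adjusted p = 0.065 and 0.0847).

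On TGF-β1, MRPS35 rose with overlapping groups (log2 fold change 0.12, SE 0.043, edgeR adjusted p = 0.0379), a call lost with DESeq2 (adjusted p = 0.0589), within subset 1 (adjusted p = 0.152) and without any 1 of 6 libraries, TGF-β1 3 or 4 and TGF-β1 plus BAY 1, 2, 3 or 5 (adjusted p of 0.0602 to 0.101). MRPS11 fell with overlapping groups (log2 fold change -0.16, SE 0.04, edgeR adjusted p = 0.00615), and within subset 1 its adjusted p was 0.0885.

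The lists around the mitoribosome mostly had more falls than rises with BAY. Transcription and RNA processing genes had 2 higher and 16 lower of 22 in normoxia, 0 higher and 9 lower in hypoxia, and 0 higher and 10 lower on TGF-β1 (by edgeR; at an unadjusted p below 0.05, 1 and 0 were higher, and DESeq2 called 1 and 0 higher). Translation factors had 1 higher and 10 lower of 16 in normoxia, 3 and 5 in hypoxia, and 0 and 2 on TGF-β1, where 0 were higher and 5 lower unadjusted and DESeq2 called 0 and 6. Assembly factors had 1 higher and 10 lower of 27 in normoxia, 1 and 6 in hypoxia, and 2 and 5 on TGF-β1. Among them C1QBP, a matrix protein that aids mitochondrial translation, averaged 76.9 ± 3.36 CPM with BAY in normoxia and 111 ± 5.60 CPM with solvent in normoxia (SD; 3 and 5 libraries), a log2 fold change of -0.51, SE 0.042, edgeR adjusted p = 9.98e-08. Aminoacyl-tRNA synthetases had 2 higher and 10 lower of 22 in normoxia, 7 and 5 in hypoxia (5 and 6 with library totals alone), and 3 and 3 on TGF-β1. Of 11 biogenesis regulators 7 fell and 0 rose in normoxia, 5 fell and 0 rose in hypoxia (0 higher in either at an unadjusted p below 0.05 and by DESeq2), and 2 fell and 1 rose on TGF-β1.

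PPARGC1B, a coactivator of mitochondrial biogenesis, averaged 3.51 ± 0.588 CPM with BAY and 7.95 ± 0.604 CPM with solvent in normoxia (log2 fold change -1.16, SE 0.15, edgeR adjusted p = 1.05e-05), and 1.37 ± 0.349 CPM with BAY and 3.45 ± 0.386 CPM with solvent in hypoxia (log2 fold change -1.34, SE 0.17, edgeR adjusted p = 1.18e-05). MYC, which activates ribosome genes, fell in normoxia (log2 fold change -1.06, SE 0.068, edgeR adjusted p = 8.81e-09). Of the 13 mitochondrially encoded mRNAs, edgeR called 0 with BAY in normoxia, where 4 were lower at an unadjusted p below 0.05 and DESeq2 called 4 lower. It called 0 on TGF-β1, where 1 was higher unadjusted and DESeq2 called 0, and 6 fell in hypoxia. MT-RNR2 rose in normoxia, both rRNAs rose in hypoxia, and neither was called on TGF-β1. Of 6 mitoribosome proteins with other symbols 3 fell in normoxia, 1 rose and 2 fell in hypoxia, and 1 fell on TGF-β1. Cytosolic ribosomal proteins had 1 higher and 20 lower of 76 in normoxia, 1 and 22 in hypoxia, and 4 and 2 on TGF-β1. With library totals alone these were 3 and 15, 1 and 57, and 5 and 5, and with RLE size factors the hypoxia split was 1 and 12 and that on TGF-β1 2 and 2. The summed immune list read 248 to 258 CPM with BAY in normoxia and 371 to 395 CPM with solvent in normoxia, carried by CD74 and CD68 while CD3E was at 0, and the podocyte list read 1228 to 1351 CPM with BAY in hypoxia and 451 to 486 CPM with solvent in hypoxia, carried by SYNPO. The epithelium list read 986 to 1040 CPM with BAY and 1394 to 1588 CPM with solvent in normoxia, and 1184 to 1190 CPM with BAY and 1488 to 1650 CPM with solvent in hypoxia. The proximal tubule list read 306 to 316 CPM with BAY and 198 to 232 CPM with solvent in normoxia. The fibroblast list read 163 to 170 CPM with BAY and 110 to 134 CPM with solvent in normoxia, and 223 to 242 CPM with BAY and 124 to 131 CPM with solvent in hypoxia. On TGF-β1 the proximal tubule list read 58.4 to 79.6 CPM with BAY and 80.9 to 105.97 CPM without. The part of these lists in the results was not tested.

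The difference between BAY responses was tested with interaction terms. Between hypoxia and normoxia, 6 large-subunit genes responded more positively in hypoxia and 1 more negatively, as did 3 and 1 small-subunit genes, where 16.8% of all genes tested were called (8.83% higher, 7.92% lower) and 23.8% of genes of at least 5 CPM (13.5% higher, 10.3% lower). Of the called positive differences that of MRPS17 was the largest (log2 0.34, SE 0.085, edgeR adjusted p = 0.0119), followed by MRPS7, a small-subunit protein with a bacterial counterpart (log2 0.29, SE 0.079, edgeR adjusted p = 0.0206), and MRPL3 (log2 0.28, SE 0.085, edgeR adjusted p = 0.0345). MRPS17 read 13.4, 13.5 and 14.9 CPM with BAY and 12.3, 12.9 and 13.7 CPM with solvent in hypoxia, where the groups overlapped, and 12.4, 12.0 and 11.5 CPM with BAY and 14.8, 14.8, 13.3, 13.9 and 15.1 CPM with solvent in normoxia, where they did not. The MRPS17 difference was lost with controls of subset 2 alone (adjusted p = 0.059) and with the block by replicate number (adjusted p = 0.0501). That of MRPS7 was lost with the same settings (adjusted p = 0.0862 and 0.0551) and without any 1 of BAY normoxia 2, BAY hypoxia 1 and solvent hypoxia 1 or 2 (adjusted p of 0.0588 to 0.0678). The MRPL3 difference was lost without any 1 of 10 of the 14 libraries (adjusted p of 0.0512 to 0.102) and with library totals alone (adjusted p = 0.0735). MRPL36, given above, and MRPS26 went the other way. The difference of MRPS26 (log2 -0.21, SE 0.06, edgeR adjusted p = 0.0269) was a call lost without any 1 of 5 libraries (adjusted p of 0.0576 to 0.164), with the block by replicate number (adjusted p = 0.0795) and with controls of either subset alone. These counts were unstable: with controls of subset 1 alone the calls were 17 and 11 in the large and small subunits, and with controls of subset 2 alone 2 and 0 by edgeR, where 5 small-subunit genes were higher and 1 lower at an unadjusted p below 0.05. Leaving out 1 library gave 2 (without BAY normoxia library 2) to 11 large-subunit calls (without solvent hypoxia library 3) and 1 to 7 small-subunit calls. Leaving out any library other than solvent normoxia 3 or 4 moved the large-subunit count by over 1.5 times, and leaving out BAY normoxia 2, BAY hypoxia 1 or any solvent hypoxia library did so for the small subunit. With library totals alone 0 large-subunit genes responded more positively (5 unadjusted) and 4 more negatively.

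Between TGF-β1 and no TGF-β1, 8 large-subunit genes responded more positively to BAY with TGF-β1 present and 0 more negatively, and 4 and 1 small-subunit genes did so, where 20.7% of all genes tested were called (13.7% higher, 7.08% lower) and 30% of genes of at least 5 CPM (19.9% higher, 10.1% lower). At an unadjusted p below 0.05, 1 large-subunit gene was more negative, and DESeq2 gave 11 and 0 large-subunit calls. The split was 3 and 1 with library totals alone (median 0.027 in place of 0.097), 5 and 0 without the filter, 12 and 1 with the block by replicate number, 9 and 1 within subset 1 and 4 and 2 within subset 2. The small-subunit split was 8 and 3 within subset 1, 2 and 2 within subset 2 and 7 and 2 with the block. MRPS10, MRPL24 and MRPL2 had the largest called positive differences (log2 0.32, SE 0.059, edgeR adjusted p = 0.00062, 0.32, SE 0.057, edgeR adjusted p = 0.000439, and 0.30, SE 0.062, edgeR adjusted p = 0.00166). All 3 genes fell with BAY in normoxia, though MRPL2 did not pass the test there without any 1 of BAY normoxia 2 or 3 and solvent normoxia 1, 2 or 5 (adjusted p of 0.0505 to 0.149), with controls of subset 2 alone (adjusted p = 0.31), with library totals alone (adjusted p = 0.0558) or with the block (adjusted p = 0.0848), and on TGF-β1 they stood at 0.004, -0.009 and 0.10 without passing the test. MRPS10 read 33.8, 32.3 and 32.3 CPM with BAY and 41.6, 41.2, 38.5, 38.2 and 45.3 CPM with solvent in normoxia, and 49.6, 48.9, 50.4, 47.8 and 49.0 CPM with TGF-β1 plus BAY and 47.6, 50.1, 48.1, 48.6 and 50.5 CPM with TGF-β1 alone. The groups of this gene were apart in normoxia and overlapped with TGF-β1. MRPS36 was the 1 small-subunit gene with a negative difference (log2 -0.27, SE 0.067, edgeR adjusted p = 0.00716). MRPL12 also had a positive difference (log2 0.28, SE 0.076, edgeR adjusted p = 0.0137), a call lost without BAY normoxia library 3 (adjusted p = 0.0575), with library totals alone (adjusted p = 0.072) and within subset 1 (adjusted p = 0.0952). The small-subunit count of 5 was 3 without BAY normoxia library 2 and 9 without solvent normoxia library 3.

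**Figure D5:**
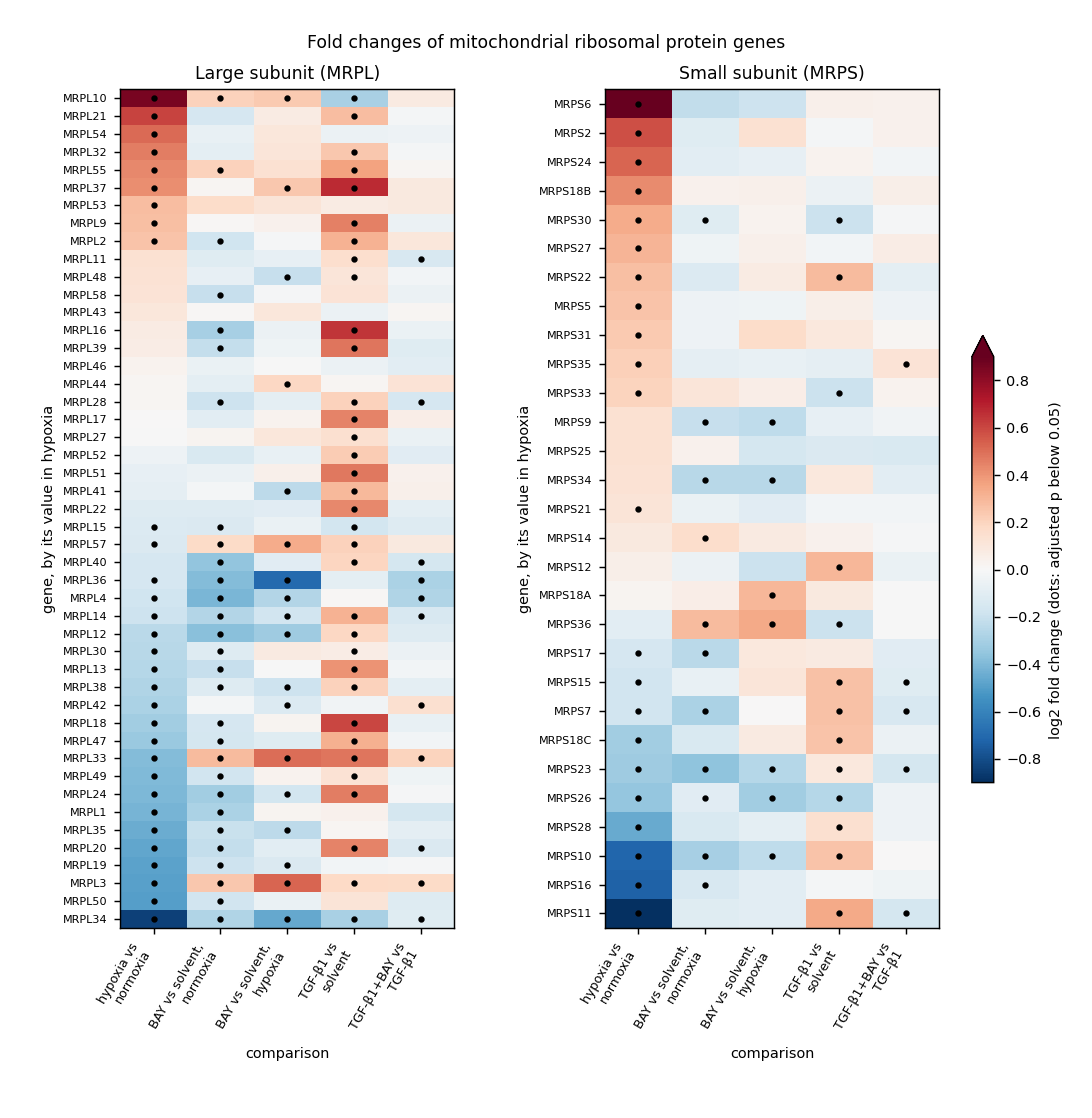
Log2 fold change (colour, capped at 0.9 in either direction) of 76 genes (rows, ordered by their value in hypoxia, large subunit left and small subunit right; MRPL45 not drawn) in the 5 comparisons (columns), with a dot where the edgeR adjusted p was below 0.05. The 31 large-subunit rises with TGF-β1 (20 with library totals alone) and the mixed directions in hypoxia stand out, and MRPS6 at 1.5 in hypoxia exceeds the colour range.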

How the data were processed

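The authors deposited 1 table of Salmon estimated counts per GENCODE gene ID, and the submitters' processing notes also name DESeq2 and GRCh38. The strand setting was not given in the sources used here. Of the values above 0, 48.6% were not whole (tolerance 1e-06), and all were rounded. Symbols came from a table of Ensembl IDs and names, which matched 58919 of 65180 IDs (the other 6261 held 4.36% of counts), and gene types, positions and transcript lengths from GENCODE release 29. Of 163 rows with a member-type symbol, 77 were pseudogenes (0.0327% of the members' counts) and 9 were of other types, and neither kind was used.

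Counts were tested with edgeR 4.0.16 (R 4.3.3; filterByExpr, TMM, robust quasi-likelihood, 1 coefficient per group, Benjamini-Hochberg over all genes), in 1 fit per experiment as the series text describes: 14 libraries for hypoxia and 18 for TGF-β1, which share the normoxic groups without TGF-β1. All 77 members passed the filter in both. The scripts were tested on simulated data. limma 3.58.1, DESeq2 1.42.0, other scalings, filters and left-out libraries were alternatives, and the subsets and the scaling by library totals were added after seeing the data.

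The members and lists were chosen with earlier results of these data known. Named were MRPL12, the 4 largest called rises and falls per comparison among genes of at least 5 CPM, the 3 largest per interaction, the MRPS18 paralogues, the extremes per kb, and the 2 largest called changes per list. MRPL14, MRPL15, MRPL46, MRPS24, MRPS33 and some list genes such as TFAM, C1QBP and POLRMT were named after their values were seen. The main fits did not pair libraries by replicate number. The correlation of deviations between same-numbered libraries was not above 0.1 for every pair of any comparison (-0.112 to 0.171). For BAY on TGF-β1 all were positive (0.0668 to 0.171). Libraries 1 and 2 of both its groups were in subset 1 and the rest in subset 2, so the numbers followed the subsets. The block by number and the subset term each gave 6 higher and 13 lower large-subunit calls there, against 3 and 8 without. Sequences are from RefSeq, GRCh38.p14.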

Additional observations from a re-analysis of the deposited data

Results flagged for a closer look

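In 2 of the 99 groups of 5 libraries examined, for 33 named genes, the highest or lowest library lay apart from the other 4 by more than Dixon's 95% limit of 0.71 allows, where chance gives about 1 in 20. MRPL34 read 17.1 CPM in TGF-β1 library 1, with the others at 15.6 to 15.9 CPM, and without it the fall of MRPL34 with BAY on TGF-β1 had an edgeR adjusted p of 0.139. MRPS16 read 83.5 CPM in TGF-β1 plus BAY library 4, with the others at 85.6 to 86.5 CPM.

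The response to BAY differed between hypoxia and normoxia, by the interaction term, for MRPS17 (log2 difference 0.34), MRPS7 (0.29), MRPL3 (0.28), MRPL36 (-0.31) and MRPS26 (-0.21). It differed between TGF-β1 and no TGF-β1 for MRPS10 (0.32), MRPL24 (0.32), MRPL2 (0.30) and MRPS36 (-0.27). Each of the differences by oxygen was lost in some setting or without some library, as given above. Of all members 14.3% were called by oxygen, against 16.8% of all genes and 23.8% of those of at least 5 CPM. For TGF-β1 these shares were 16.9%, 20.7% and 30%, so members were called no more often than the background.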

How the results depend on the processing

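Of 115 called values of named genes, 86 stayed called in the same direction under every planned setting, 28 were lost when some 1 library was left out, 21 of the 58 that this setting touches with controls of subset 2 alone, and 14 with library totals alone. With library totals alone the TGF-β1 values of MRPL4 and MRPS23 turned to -0.12 and -0.036, and the medians were 0.044 (hypoxia, small subunit), -0.091 (BAY in hypoxia, small), 0.069 and -0.087 (TGF-β1, large and small), 0.021 and -0.038 (oxygen by BAY, large and small) and 0.027 and 0.017 (TGF-β1 by BAY). That scaling gave 8 small-subunit calls for BAY on TGF-β1 and 4 large-subunit calls in each interaction.

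With controls of subset 1, BAY in normoxia had 22 small-subunit calls and a large-subunit median of -0.19, and oxygen by BAY had 17 large- and 11 small-subunit calls with a small-subunit median of 0.13. With controls of subset 2, BAY in normoxia had 17 and 7 calls and oxygen by BAY 2 and 0. The 0 is from edgeR, and 5 genes were higher and 1 lower at an unadjusted p below 0.05. Within subset 1 the BAY on TGF-β1 large-subunit median was -0.091 and TGF-β1 by BAY had 11 small-subunit calls, and within subset 2 the TGF-β1 medians were 0.27 and 0.12. Subset as a term gave 19 and 8 calls for BAY on TGF-β1, and DESeq2 gave 17 large-subunit calls. Without the filter the interactions had 4 and 5 large-subunit calls, and all 24 libraries in 1 fit gave 7 small-subunit calls for oxygen by BAY.

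With the replicate number as a block, BAY on TGF-β1 had 19 large-subunit calls, oxygen by BAY 4 and 1, and TGF-β1 by BAY 13 and 9. Leaving out 1 library gave small-subunit medians of 0.049 to 0.18 in hypoxia, -0.078 to 0.036 for BAY in hypoxia and 0.015 to 0.11 for oxygen by BAY. Calls ran over 18 to 30 (BAY in normoxia, large), 6 to 11 (BAY in hypoxia, small), 7 to 15 (BAY on TGF-β1, large), 2 to 11 and 1 to 7 (oxygen by BAY, large and small) and 3 to 9 (TGF-β1 by BAY, small). The causes were not tested.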
